A study of Mus musculus with 20 samples.

Results

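In the livers of old mice, 249 stretches of chromosomes 1 to 19 held overlapping peaks of Setdb1 and Kap1 in genome-wide location analysis (ChIP-Seq). They were chosen by position alone, as the Setdb1 peaks of old liver that share at least 1 bp with a Kap1 peak of old liver. These were 249 of the 13678 old Setdb1 peaks on chromosomes 1 to 19 and of 13877 such peaks in all, or 1.82% of the former (95% Wilson interval, 1.61% to 2.06%). Of the 21390 old Kap1 peaks on the same chromosomes, 252 took part. The livers came from wild-type male C57BL/6 mice, and all groups share this background. The peaks of Setdb1 were called on 3 pooled livers per age, those of H3K14ac on 3 and those of Kap1 on 2. Old mice were 21 months of age and young mice 3 months. The other peak lists used here held 20120 peaks of old H3K14ac, 18885 of young H3K14ac, 49271 of young Setdb1 and 47084 of young Kap1 on chromosomes 1 to 19. A list gives the position of each peak only, without height, score or read count. Each pool is 1 list, so no spread between livers can be given, the depth behind a peak is unknown and no test between ages or groups was made. Intervals below are 95% Wilson intervals, which cover counting error only and treat neighbouring peaks as independent. Chromatin came from whole frozen liver, so that fewer cells with a bound site and weaker binding per cell cannot be told apart.

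Setdb1 is a histone methyltransferase that trimethylates lysine 9 of histone H3, a mark of silent chromatin. Kap1, also known as Trim28, is a scaffold without DNA-binding specificity of its own. It is brought to DNA by zinc finger proteins that carry a KRAB domain, and in turn brings Setdb1, which is well known for keeping transposable elements and clusters of zinc finger genes silent. H3K14ac is acetylation of lysine 14 of the same histone tail and is usually found at active start sites and enhancers. As a check of the tissue, an old H3K14ac peak lay within 1 kb of a start site of 8 of 15 hepatocyte genes, among them Apoa1, Apob, Ttr and Foxa2, and of 0 of 15 genes of other tissues. Alb, a defining hepatocyte gene, was among the 7 without such a peak. In young liver the numbers were 8 of 15 and 1 of 15.

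Sequences of the sites are shown first for the places at most 250 bp wide that were in all 6 peak lists. These had peaks of Setdb1, Kap1 and H3K14ac at both ages. Bases are those of the plus strand of GRCm38 (mm10) in RefSeq. The Setdb1 peak is printed whole, and capitals mark the bases that it shares with the Kap1 peak.
Camk1d site, chr2:5379200-5379443: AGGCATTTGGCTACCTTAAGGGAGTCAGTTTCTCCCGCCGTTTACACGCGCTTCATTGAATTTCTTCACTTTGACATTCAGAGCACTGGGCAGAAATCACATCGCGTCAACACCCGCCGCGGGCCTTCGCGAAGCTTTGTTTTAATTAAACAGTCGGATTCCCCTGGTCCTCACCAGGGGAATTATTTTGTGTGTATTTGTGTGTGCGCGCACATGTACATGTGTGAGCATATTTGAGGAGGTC
Chia1 site, chr3:106131709-106131951: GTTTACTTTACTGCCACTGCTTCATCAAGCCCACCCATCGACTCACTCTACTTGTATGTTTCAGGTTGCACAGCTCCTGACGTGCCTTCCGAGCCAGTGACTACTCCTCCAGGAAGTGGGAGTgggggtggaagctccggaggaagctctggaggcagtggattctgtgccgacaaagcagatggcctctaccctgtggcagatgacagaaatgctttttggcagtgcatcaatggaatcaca
site between Chia1 and Chil3, chr3:106144128-106144327: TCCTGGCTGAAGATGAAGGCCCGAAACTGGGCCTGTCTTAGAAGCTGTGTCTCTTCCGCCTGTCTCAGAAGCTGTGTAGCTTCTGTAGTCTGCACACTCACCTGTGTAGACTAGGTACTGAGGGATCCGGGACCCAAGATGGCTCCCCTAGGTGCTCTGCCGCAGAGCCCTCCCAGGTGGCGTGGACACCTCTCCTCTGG
Mdga2 site, chr12:67059337-67059536: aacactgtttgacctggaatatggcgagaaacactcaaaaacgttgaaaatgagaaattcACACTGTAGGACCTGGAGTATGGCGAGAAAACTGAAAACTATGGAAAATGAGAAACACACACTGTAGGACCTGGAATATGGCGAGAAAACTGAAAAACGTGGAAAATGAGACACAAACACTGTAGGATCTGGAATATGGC
Tmem267 site, chr13:119601384-119601611: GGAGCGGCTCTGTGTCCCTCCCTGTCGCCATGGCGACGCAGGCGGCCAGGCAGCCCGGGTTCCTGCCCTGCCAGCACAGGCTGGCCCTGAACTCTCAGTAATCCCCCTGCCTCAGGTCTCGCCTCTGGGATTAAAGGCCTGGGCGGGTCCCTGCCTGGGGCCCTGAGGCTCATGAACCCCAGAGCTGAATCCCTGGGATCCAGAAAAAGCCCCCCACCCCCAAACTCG
The Camk1d site lies in an intron of the gene for a calcium and calmodulin-dependent kinase. It held 14 CpG dinucleotides, and its observed over expected CpG ratio of 0.965 was the highest among the 249 sites, whose median was 0.125. The Chia1 site lies in coding sequence of the acidic mammalian chitinase gene, and each of its 31-mers occurs once in the genome. The site between Chia1 and Chil3, a neighbouring chitinase-like gene, was covered whole by its Kap1 peak. The Mdga2 site lies in an intron of a gene for a neuronal surface protein, and 77% of its bases were soft-masked as repeat. It repeats the letters CTGGAATATGGC 3 times, and these 12 letters, on either strand, were found in 2 of the 249 sites, in 3 of all 13678 old Setdb1 peaks and in 19 of the 21138 old Kap1 peaks without Setdb1. The other site that held them covers the start of Gm10800. The Tmem267 site, in an intron of a transmembrane protein gene, had a median of 4 genome copies per 31-mer and 66.7% GC.

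The next sequences are the 4 sites at most 250 bp wide that lay closest to a transcription start site, shown because start sites were rare among the shared sites.
Gm5548 site, chr3:113054169-113054368: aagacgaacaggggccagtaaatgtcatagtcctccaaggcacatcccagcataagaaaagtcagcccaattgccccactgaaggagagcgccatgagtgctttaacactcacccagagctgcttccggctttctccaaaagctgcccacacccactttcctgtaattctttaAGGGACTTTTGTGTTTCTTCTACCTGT
Zfp984 site, chr4:147775698-147775925: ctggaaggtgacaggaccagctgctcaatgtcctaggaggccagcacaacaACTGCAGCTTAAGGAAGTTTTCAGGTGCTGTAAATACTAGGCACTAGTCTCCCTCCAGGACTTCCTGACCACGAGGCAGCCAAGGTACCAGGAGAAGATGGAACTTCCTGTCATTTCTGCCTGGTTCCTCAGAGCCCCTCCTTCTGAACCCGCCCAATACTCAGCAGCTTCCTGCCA
Vmn1r72 site, chr7:11680163-11680362: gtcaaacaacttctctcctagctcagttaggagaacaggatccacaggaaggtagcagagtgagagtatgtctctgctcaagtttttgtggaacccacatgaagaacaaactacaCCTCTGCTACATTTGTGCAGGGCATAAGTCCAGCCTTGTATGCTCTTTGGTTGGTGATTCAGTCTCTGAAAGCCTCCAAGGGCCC
Gm11355 site, chr13:26899722-26899921: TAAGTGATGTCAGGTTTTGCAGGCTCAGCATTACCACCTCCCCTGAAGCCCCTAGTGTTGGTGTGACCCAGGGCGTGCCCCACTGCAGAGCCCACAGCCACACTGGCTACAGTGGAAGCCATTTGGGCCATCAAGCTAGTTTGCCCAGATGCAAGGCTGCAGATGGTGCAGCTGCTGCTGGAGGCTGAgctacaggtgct
Zfp984 encodes a zinc finger protein, and the Setdb1 peak there spans an annotated start of the gene. Vmn1r72 encodes a pheromone receptor of the vomeronasal organ and had its start 15 bp away. Gm5548 and Gm11355 are annotated as processed pseudogenes, with starts 0 and 74 bp away. The Vmn1r72 site had 0 CpG dinucleotides and a median of 2 copies per 31-mer.

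The last pair shows the limits of the rule and of the sequence. The Adgrb2 site, together with a site in Dlg2, shared the fewest bases with Kap1, and the Gm5373 site had the highest median copy number among the sites of exactly 200 bp.
Adgrb2 site, chr4:130013649-130013848: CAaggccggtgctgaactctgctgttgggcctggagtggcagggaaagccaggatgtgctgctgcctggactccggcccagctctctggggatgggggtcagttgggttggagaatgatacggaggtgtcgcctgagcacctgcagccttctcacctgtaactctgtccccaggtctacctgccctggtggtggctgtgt
Gm5373 site, chr8:71834196-71834395: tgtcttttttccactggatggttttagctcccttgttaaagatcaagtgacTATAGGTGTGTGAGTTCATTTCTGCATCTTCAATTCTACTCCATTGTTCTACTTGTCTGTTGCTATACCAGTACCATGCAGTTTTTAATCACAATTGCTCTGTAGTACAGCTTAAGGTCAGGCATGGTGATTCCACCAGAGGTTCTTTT
Only the first 2 bases of the Adgrb2 site, in a gene for an adhesion receptor, were shared with Kap1. At the Gm5373 site, in an annotated pseudogene, 149 of 200 bp were shared, all bases were soft-masked as repeat and the median 31-mer occurred 39 times in the genome.

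Most of the shared sites paired a peak of the commonest width of each list. The Setdb1 peak had exactly 200 bp at 168 sites and was wider at 81, where the widths ran from 206 to 2769 bp with a median of 376 bp. Wider peaks were thus 32.5% of the sites (27.0% to 38.6%), beside 1.84% of all old Setdb1 peaks. A single Kap1 peak met 246 of the sites, and 2 Kap1 peaks met each of the other 3, which gave 252 pairs. The Kap1 peak had exactly 150 bp in 158 pairs and was wider in 94. Both peaks had their commonest width at 148 sites and both were wider at 71. The shared stretch was 2 to 2769 bp long, with a median of 139 bp and quartiles of 89.8 and 185.8 bp. The midpoints of a pair lay a median of 70 bp apart, with quartiles of 23 and 129 bp. In 34 pairs the Setdb1 peak lay inside the Kap1 peak, in 51 the Kap1 peak lay inside the Setdb1 peak, and in 167 the peaks were staggered. The longest shared stretch, 2769 bp, was in an intron of Mroh2a (chr1:88248734-88251502), where the Kap1 peak was 9837 bp wide. The other 9 of the 10 longest ran from 1160 to 1826 bp. They included sites in an intron of Trpm8, the cold-sensing ion channel, at the start of Gm10800, at 3 neighbouring places near the start of chromosome 16, and near the ends of chromosomes 2 and 9. Width and sharing moved together in the Setdb1 list. A Kap1 peak met 81 of the 252 Setdb1 peaks wider than 200 bp, or 32.1% (26.7% to 38.1%), and 168 of the 13426 peaks of 200 bp, or 1.25% (1.08% to 1.45%). A wider peak has more bases to share, and the part of width in this difference was not tested. The number of sites depended on the rule, with 142 where at least 50% of both peaks had to be shared and 462 where a gap of up to 500 bp was allowed.

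**Figure D1:**
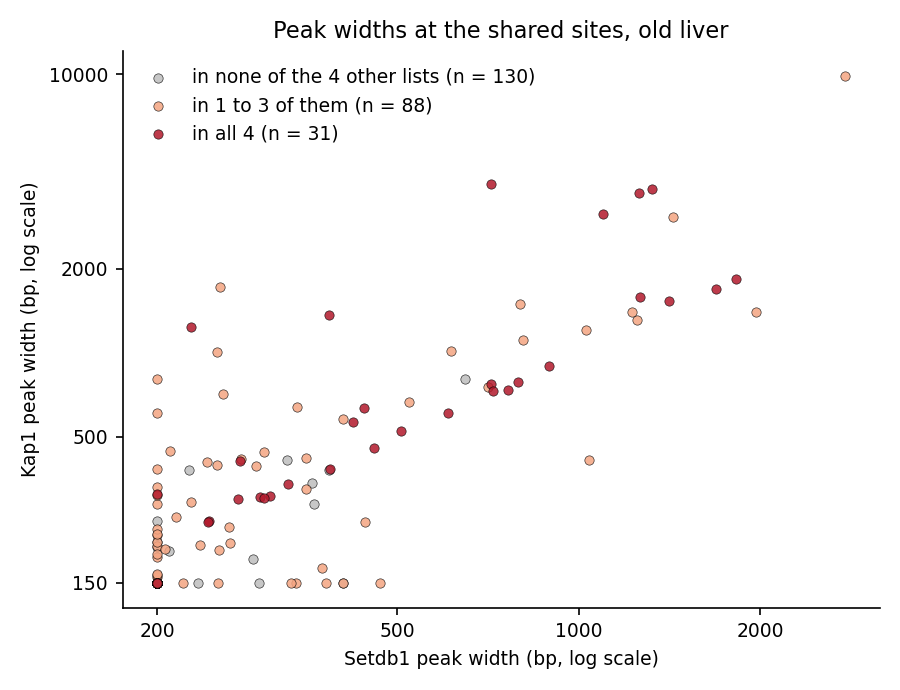
Width of the Setdb1 peak (horizontal axis, bp, log scale) against width of the Kap1 peak with the longest shared stretch (vertical axis, bp, log scale) at the 249 shared sites of old liver. Colours show whether the site was in none, 1 to 3 or all of the 4 other lists (H3K14ac old and young, Setdb1 young, Kap1 young). Points overlap at 200 bp and 150 bp, where 148 sites lie, and 29 of the 31 sites in all lists have a Setdb1 peak wider than 200 bp.

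At the edge of the rule, 9 sites shared 2 to 8 bp with Kap1, including sites in introns of Adgrb2, Dlg2, Chil3, Corin, Vmn2r57 and 4930469K13Rik and at 2 places between genes. Of these 9, 3 met a young Kap1 peak, 1 met an old H3K14ac peak and 0 met a young Setdb1 peak. Over all 249 sites the shares were 40.2%, 20.5% and 20.5%. Just outside the rule, another 9 Setdb1 peaks ended within 10 bp of a Kap1 peak without sharing a base. The closest 5 of them, with gaps of 0 to 7 bp, included peaks in or near Jazf1, Olfr1112 and Gm853, and 1 of the 5 met an old H3K14ac peak.

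The sites were spread over all 19 chromosomes, with 31 on chromosome 4, 21 on chromosome 3 and 20 each on chromosomes 1 and 7. As a share of the Setdb1 peaks of a chromosome, the values were 3.39% on chromosome 4 (2.40% to 4.77%), 3.03% on chromosome 13 (1.93% to 4.74%) and 0.224% on chromosome 11 (0.0396% to 1.26%), against 1.82% over all 19. The intervals of chromosomes 4 and 13 lay above 1.82% and that of chromosome 11 below it, and those of the other 16 contained it. The window chr4:147000001-148000000 held 10 of the 31 sites of chromosome 4. On chromosome 13, chr13:12000001-13000000 and chr13:33000001-34000000 held 4 and 3 of the 18 sites. The part of these windows in the shares was not tested. Chromosome 4 had 1917 old Kap1 peaks, fewer than only chromosome 7, and chromosome 11 had 409, the fewest of the 19. Chromosome 7, with 2131, had a share of 2.31%, and its interval contained 1.82%. Chromosome 13 had 1157. The part of the number of Kap1 peaks in the shares was not tested. The only site on chromosome 11 was that in an intron of 4930469K13Rik, with 8 bp shared.

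**Figure D2:**
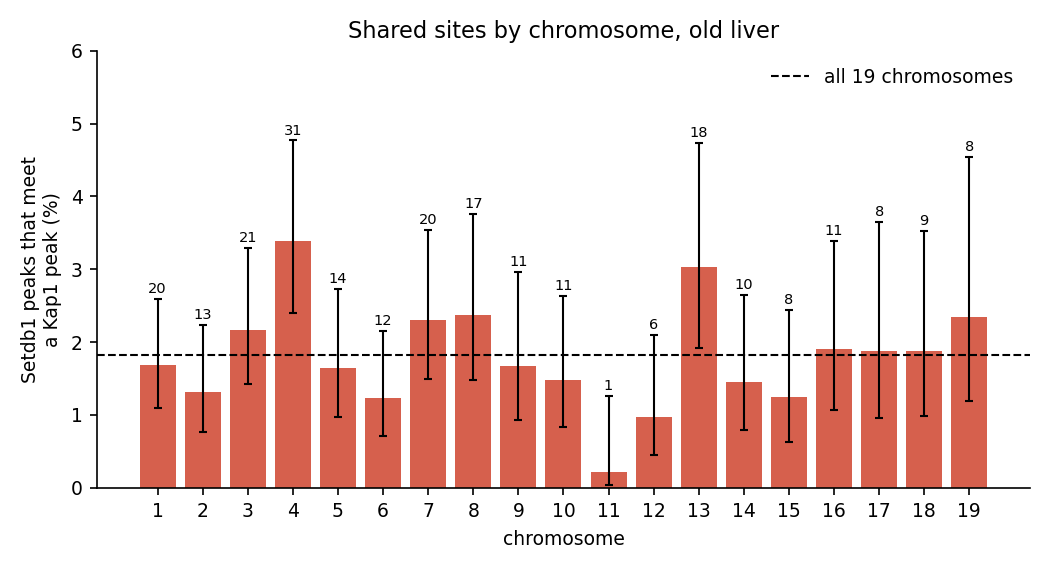
Old Setdb1 peaks that meet an old Kap1 peak, as a percentage of the Setdb1 peaks of each chromosome. Bars give the share, lines its 95% Wilson interval, numbers the count of shared sites, and the dashed line the share over all 19 chromosomes (1.82%). Chromosomes 4 and 13 stand above the line and chromosome 11 below it. On chromosome 4, 10 of the 31 sites lie in chr4:147000001-148000000.

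The 249 sites fell into 174 windows of 1 Mb. A single site lay in 134 of the windows, 2 in 23 and 3 or more in 17, which together held 69 sites. The fullest window, chr4:147000001-148000000, held 10 sites over 733693 bp, of 23 Setdb1 and 220 Kap1 peaks there. It is a cluster of zinc finger genes. The sites lay at the start and in an intron of Zfp984, in introns of the long noncoding genes C230088H06Rik and Gm26624, and between genes. Of the 10, 8 met a young Kap1 peak, 4 an old H3K14ac peak and 3 a young Setdb1 peak. For these and the windows below, the shares of all 249 sites were 40.2%, 20.5% and 20.5%, in that order of lists. The window chr3:106000001-107000000 held 7 sites in and around Chia1, Chil3 and the pseudogene Gm6522, of which 5 met young Kap1, 4 young Setdb1 and 3 old H3K14ac. Another 7 lay in chr16:3000001-4000000, 6 of them between genes at 1899 to 39751 bp from a run of unread bases, and 1 in an intron of Nlrc3, an immune regulator. Of these, 6 met young Kap1, 4 young Setdb1 and 1 old H3K14ac. Windows with 4 sites each held an intron of Glra3, a glycine receptor subunit, on chromosome 8, the region of Mtr, the methionine synthase gene, on chromosome 13, and Zfp950 and Csf2ra, the receptor chain for granulocyte-macrophage colony-stimulating factor, at the end of chromosome 19. The other 11 windows had 3 sites each. Genes in or within 1 kb of their sites included Zfp936 and Klk1b8 on chromosome 7, Ccdc138 and AW822073 on chromosome 10, Cyp3a63-ps and Kpna7 on chromosome 5, Rps6ka2 on chromosome 17, Gm9733 on chromosome 3, Gm15056 on chromosome 8, and Vmn2r-ps94 on chromosome 13.

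Shared sites lay near the unread parts of the assembly more often than the Setdb1 list as a whole. A run of at least 1000 unread bases lay within 100 kb of 34 of the 249 sites, or 13.7% (9.94% to 18.5%), beside 1.30% of all 13678 old Setdb1 peaks. The last base of the chromosome lay within 1 Mb of 25 sites, or 10.04% (6.89% to 14.4%), beside 0.987% of all. The site closest to such a run, at 1572 bp, was near the end of chromosome 2. Among the 168 sites of 200 bp the shares were 7.74% and 4.17%, and among the 81 wider sites 25.9% and 22.2%. Old Kap1 peaks without Setdb1 had shares of 5.69% and 6.10%. Of the 34 sites near a run of unread bases, 24 met young Kap1, 12 old H3K14ac and 12 young Setdb1. The shares of all 249 sites were 40.2%, 20.5% and 20.5%, in the same order.

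The shared sites lay in genes about as often as the Setdb1 list as a whole. The midpoint lay in an annotated gene at 110 sites, or 44.2% (38.1% to 50.4%), the same as the 44.2% of all old Setdb1 peaks. A transcription start site lay within 1 kb of 15 sites, or 6.02% (3.68% to 9.70%), beside 4.39% of all. Of the remaining sites, 11 had their midpoint in an exon, 90 in an intron and 133 between genes. These were 4.42%, 36.1% and 53.4% of the 249, beside 3.37%, 38.0% and 54.3% of all old Setdb1 peaks. The median distance to a start site was 14655 bp, compared with 22502 bp for the other Setdb1 peaks and 15224.5 bp for Kap1 peaks without Setdb1. The interval for start sites within 1 kb contained the value of the whole list. With a distance of 5 kb, 24.5% of the sites (19.6% to 30.2%) and 17.6% of all old Setdb1 peaks had a start site, and the interval of the sites lay above the latter value. At the sites of 200 bp the share was 21.4% (15.9% to 28.2%), and this interval contained it. The genes in or within 1 kb of a site numbered 130, of which GENCODE lists 93 as protein coding, 10 as antisense and 10 as long intergenic noncoding.

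The 15 sites near a start site belonged to few genes of known function. Zfp984, Vmn1r72 and Sp140 encode a zinc finger protein, a vomeronasal receptor and a nuclear body protein. The start of Sp140 lay 112 bp from a Setdb1 peak of 340 bp that shared 91 bp with Kap1 and met old and young H3K14ac and young Kap1. Gm10800 lay under a Setdb1 peak of 1249 bp that was shared whole and met H3K14ac at both ages and young Setdb1. Gm14401 and AW822073 had sites 6 and 344 bp from their starts, and both sites met H3K14ac at both ages and young Kap1. The remaining 9 were at 2 further vomeronasal pseudogenes, Vmn2r-ps5 and Vmn2r-ps26, at Gm5548, Gm15877, Gm18042, Gm11355, Gm47714 and Gm34198, and at 4921501E09Rik. Old H3K14ac was met at 4 of the 15 sites, young H3K14ac at 5, young Kap1 at 7 and young Setdb1 at 1. Of the 15 sites 0 were in all 6 lists, while 6 met none of the 4 other lists. Among all 249 sites, 20.5% met old H3K14ac, 40.2% young Kap1 and 20.5% young Setdb1. In all 6 lists were 12.4% of the 249, and 52.2% met none of the 4. No interval is given for the 15 sites, so their count of 0 cannot be called different from 12.4%. Coding sequence held the midpoint of 7 sites, or 2.81% (1.37% to 5.69%), beside 1.98% of all old Setdb1 peaks. They lay in Zfp142, Gm10800, Chia1, Slc2a3 (a glucose transporter), Peak1, Sall2 and Flywch1.

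Zinc finger genes were the list with the most sites. Of 486 such genes, 7 had a site in them or within 1 kb, namely Zfp142, Zfp385a, Zfp936, Zfp950, Zfp980, Zfp981 and Zfp984. The sites there numbered 9, or 3.61% (1.91% to 6.73%) of the 249, beside 0.541% of all old Setdb1 peaks. With a distance of 10 kb the share was 5.62%, beside 0.921% of all. Both sites in introns of Zfp980 and Zfp981, at chr4:145680249-145680520 and chr4:146535936-146536652, were in all 6 peak lists. The Zfp981 site was covered whole by a Kap1 peak of 4022 bp. Of the 9 sites, 5 met young Kap1, 3 young H3K14ac, 2 old H3K14ac and 2 young Setdb1, and 3 had a median of 2 or more copies per 31-mer. Beside them, 40.2% of all 249 sites met young Kap1, 20.5% old H3K14ac and 20.5% young Setdb1, and 14.9% had such copies. Vomeronasal receptor genes came next. Of 561 such genes and pseudogenes, 8 had 1 site each, or 3.21% (1.64% to 6.21%) of the 249, beside 0.497% of all old Setdb1 peaks. These were Vmn1r70, Vmn1r72, Vmn2r57, Vmn2r60, Vmn2r80 and the pseudogenes Vmn2r-ps5, Vmn2r-ps26 and Vmn2r-ps94. The zinc finger and vomeronasal shares are not set beside old Kap1 peaks without Setdb1, so neither can be called particular to the shared sites. At the 8 sites, 2 met young Kap1, 1 young Setdb1 and 0 H3K14ac at either age, which 71 of all 249 sites met.

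The other gene lists had 1 site or none. Olfactory receptors, the largest list with 1399 genes, had 1 site, at Olfr1505, or 0.402% of the 249. Beside it were 120 old Setdb1 peaks, or 0.877% of all. A single site is too few to tell these shares apart. The protocadherin Pcdh7, the cytochrome P450 pseudogene Cyp3a63-ps and the conjugating enzyme gene Ugt3a1 had 1 site each, or 0.402% of the 249. The 3 lists they stand for had 25, 23 and 12 old Setdb1 peaks in all, or 0.183%, 0.168% and 0.0877%. The single site in the ribosomal protein list was in Rps6ka2, which was listed by its symbol but encodes a kinase, beside 7 old Setdb1 peaks in that list in all. No site lay in or within 1 kb of the 43 Hox, 88 histone, 49 major urinary protein, 67 serpin, 29 apolipoprotein, 44 complement and coagulation and 40 imprinted genes of these lists. The imprinted list is not complete, and a site that met none of the 4 other lists lay in an intron of Snhg14, a noncoding transcript of an imprinted cluster that the list does not hold and that was picked out after its values were seen. Over the whole old Setdb1 list these 7 lists had 0, 0, 0, 7, 2, 8 and 7 peaks, and a count of 0 sites allows a share of up to 1.20% by 3 counts of 249, or 1.52% by the Wilson interval.

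The shared sites met the peaks of the 4 other lists more often than the Setdb1 list as a whole. An old H3K14ac peak was met by 51 of the 249 sites, or 20.5% (15.9% to 25.9%), beside 1.16% of all old Setdb1 peaks. A young H3K14ac peak was met by 61, or 24.5% (19.6% to 30.2%), beside 1.37%. For young Setdb1 the number was also 51, or 20.5% (15.9% to 25.9%), beside 3.12%. Young Kap1 was met by 100 sites, or 40.2% (34.3% to 46.4%), beside 3.17%. Among the 13429 old Setdb1 peaks without Kap1 the shares were 0.797%, 0.938%, 2.80% and 2.48%, in the same order. Old Kap1 peaks without Setdb1 met these lists at 4.97%, 6.31%, 2.41% and 16.8%. Over sites of all widths, the values of the shared sites were thus above those of both parent lists, with intervals that did not overlap.

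Against the other old Setdb1 peaks this held in both width classes of the Setdb1 peak, exactly 200 bp and wider, at different levels. The wider class was not matched for width. Its median was 376 bp (up to 2769 bp) at the shared sites and 267 bp (up to 717 bp) at the other peaks. Of the 168 sites of 200 bp, 3.57% (1.65% to 7.57%) met old H3K14ac, 6.55% (3.70% to 11.3%) young H3K14ac, 8.93% (5.48% to 14.2%) young Setdb1 and 21.4% (15.9% to 28.2%) young Kap1. The 13258 other Setdb1 peaks of 200 bp had 0.709%, 0.807%, 2.71% and 2.26%. For H3K14ac at both ages and for young Kap1, the intervals of the sites of 200 bp contained the values of Kap1 peaks without Setdb1, 4.97%, 6.31% and 16.8%. Those Kap1 peaks were of all widths, with a median of 150 bp and a highest value of 15870 bp. Of the 81 wider sites, 55.6% (44.7% to 65.9%) met old H3K14ac, 61.7% young H3K14ac, 44.4% (34.1% to 55.3%) young Setdb1 and 79.0% (68.9% to 86.5%) young Kap1. The 171 other wide Setdb1 peaks had 7.60%, 11.1%, 9.94% and 19.3%. Within the shared sites, width moved with the overlap in all 4 lists, and its part in that was not tested.

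**Figure D3:**
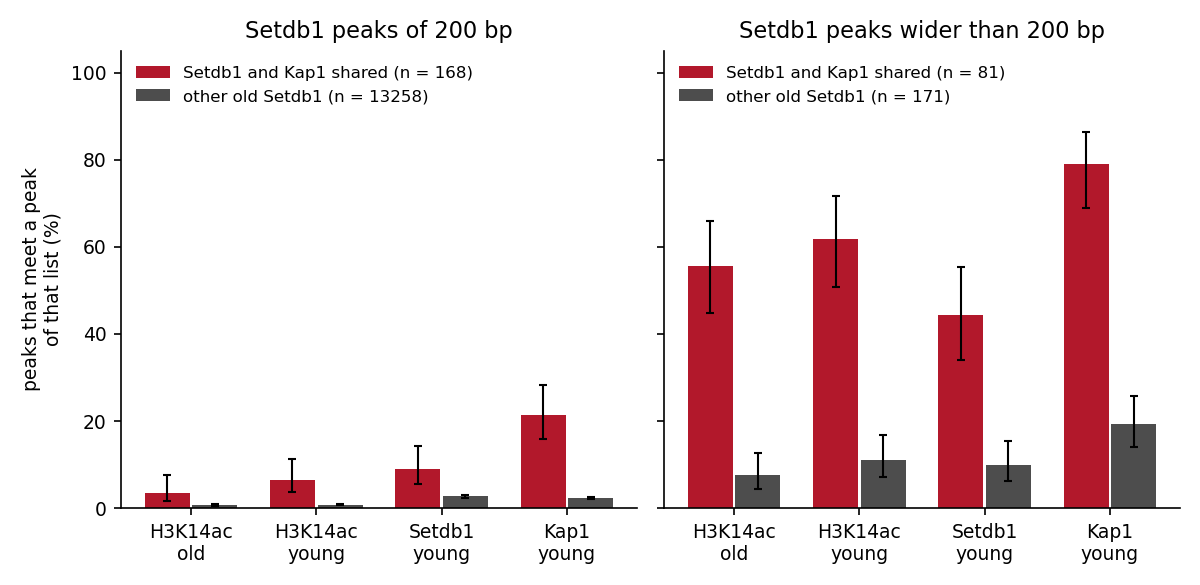
Percentage of old Setdb1 peaks that met a peak of each of 4 other lists, for peaks of 200 bp (left) and wider peaks (right). Red bars are the Setdb1 and Kap1 shared sites, grey bars the other old Setdb1 peaks, and lines are 95% Wilson intervals. In both panels each red bar stands above its grey bar, with the highest at young Kap1 (21.4% and 79.0%).

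The overlap was centred on the sites. At the midpoint of the Setdb1 peak, an old H3K14ac peak covered 20.1% of the shared sites, a young H3K14ac peak 22.9%, a young Setdb1 peak 18.1% and a young Kap1 peak 31.7%. At 1 kb to the right the values were 6.83%, 4.42%, 3.21% and 11.2%. The other old Setdb1 peaks had 0.678%, 0.797%, 1.94% and 1.41% at the midpoint and 0.447%, 0.372%, 0.544% and 0.484% at 1 kb. At that distance the shared sites had higher values than the other peaks in each list. Farther out, the line for young Setdb1 fell below that of the other peaks at single points, as at 4600 bp to the right (0% beside 0.566%). At 5 kb it was above that line on both sides, with 1.61% beside 0.425% to the left and 0.803% beside 0.454% to the right. A peak of old H3K14ac lay within 5 kb of 53 of the 198 sites that did not meet one, and the median distance was 20418 bp. For young Kap1 the number was 71 of 149, with a median of 5773 bp, and for young Setdb1 70 of 198, with a median of 8776 bp.

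**Figure D4:**
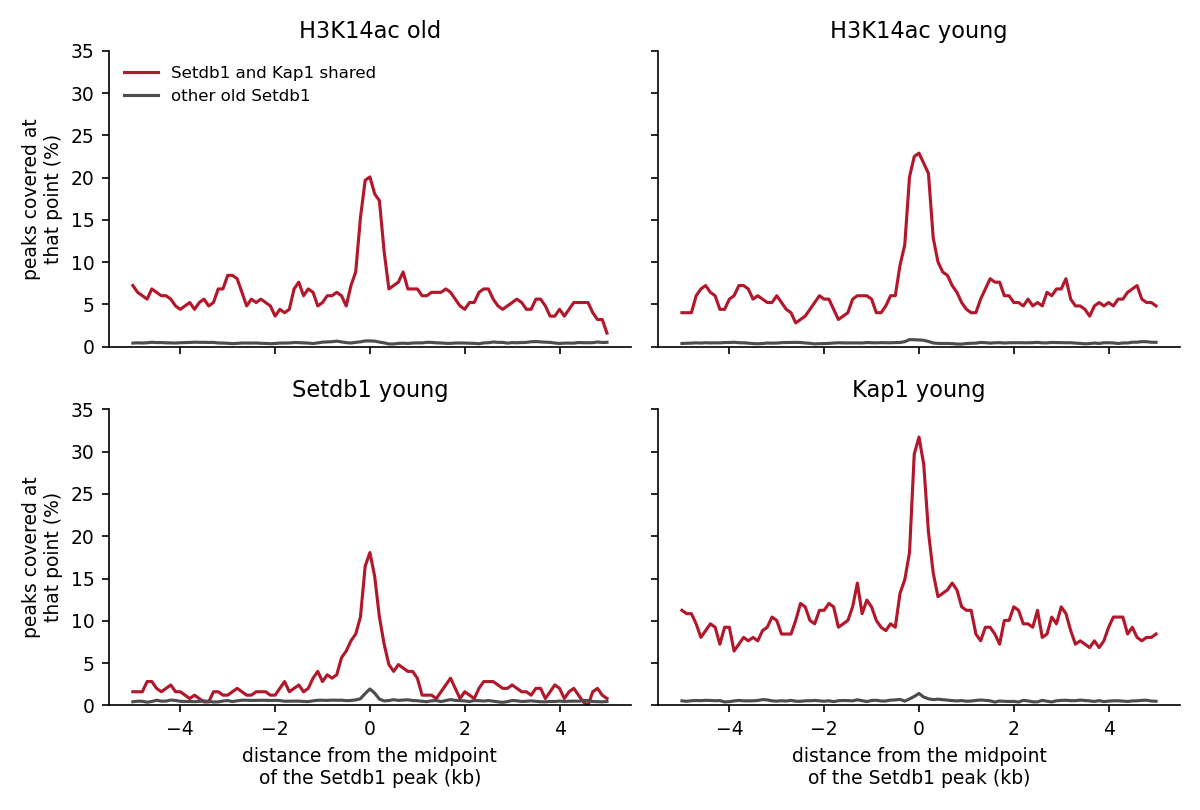
Percentage of old Setdb1 peaks covered by a peak of each other list at points up to 5 kb on either side of the midpoint, in steps of 100 bp, for the 249 shared sites (red) and the 13429 other old Setdb1 peaks (grey). Each red line is highest near the midpoint, from 18.1% for young Setdb1 to 31.7% for young Kap1, and the grey lines reach at most 1.94%.

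Between ages, 40 of the 249 sites met both young Setdb1 and young Kap1, and the same 40 met a place that young Setdb1 and young Kap1 shared. Another 60 met young Kap1 without young Setdb1, 11 met young Setdb1 without young Kap1, and 138 met neither. In young liver 1027 Setdb1 peaks shared a base with a Kap1 peak, of 49271, and 41 of the 1027 met a shared site of old liver. H3K14ac was met at both ages by 41 sites, at the old age only by 10 and at the young age only by 20. Of the 51 sites with old H3K14ac, 45 met young Kap1, which 40.2% of all 249 sites met. In the combinations of the 4 lists, 130 sites, or 52.2%, met none and 36 met young Kap1 only. The 31 sites that met all 4 were the next most frequent group, at 12.4% (8.91% to 17.1%), while 5 of the 13429 other Setdb1 peaks did so. Each of the 11 other combinations had 10 sites or fewer. The young lists of Setdb1 and Kap1 are longer than the old lists of 13678 and 21390 peaks, so the counts at the 2 ages are not on 1 scale.

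The 31 sites in all 6 lists were wide, and the shared stretch was at the median nearly as long as the Setdb1 peak. Their Setdb1 peak had a median of 458 bp (200 to 1826 bp), the Kap1 peak 633 bp (150 to 4022 bp) and the shared stretch 451 bp. At the 130 sites in no other list these medians were 200, 150 and 112.5 bp. The Setdb1 peak was wider than 200 bp at 29 of the 31 and at 11 of the 130. None of the 31 had a start site within 1 kb, the closest being 1097 bp away, near Gm42959. The interval of this count of 0 contained the 6.02% of all shared sites, so the 31 cannot be told apart from them here. The midpoint was in an annotated gene at 17, including introns of Trpm8, Aida, Camk1d, Mdga2, Kctd16 (an auxiliary subunit of GABA-B receptors), Fbxw4, Cmss1, Tmem267, Zfp980, Zfp981, 2700054A10Rik, E030030I06Rik and C230088H06Rik. Exons of Chia1, Csf2ra, Peak1 and Gm14496 held 4 more midpoints. The other 14 lay between genes. They included chr10:57437793-57438507 and its neighbour chr10:57442261-57442700, 2 places 183792 and 194986 bp from the end of chromosome 2, and the Setdb1 peaks of 1826 and 1691 bp at chr9:124256312-124258137 and chr15:75085428-75087118. A run of unread bases lay within 100 kb of 8 of the 31. The median 31-mer had 2 or more copies at 4 of the 31, or 12.9% (5.13% to 28.9%), near the 14.9% of all shared sites. The most copies, 27, were at chr17:13552764-13553149 in 2700054A10Rik, where 33.7% of the bases were in short tandem repeats with the 5-base unit ACAGC.

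Repeats made up more of the shared sites than of the Setdb1 list. The median share of soft-masked bases, which marks repeats in the reference, was 30.5% (quartiles 10% and 72.3%), compared with 14% (0% and 40%) in the other old Setdb1 peaks and 17.3% (0% and 56.7%) in old Kap1 peaks without Setdb1. Copy number was taken from the 31-mers of each peak, counted on both strands of chromosomes 1 to 19, X and Y. The median 31-mer had 2 or more copies at 37 sites, or 14.9% (10.98% to 19.8%), beside 3.30% of all old Setdb1 peaks and 8.78% of Kap1 peaks without Setdb1. It was 11.3% at the sites of 200 bp and 22.2% at the wider ones. With 24-mers the share was 26.1%, beside 7.57% of the other Setdb1 peaks. Each 31-mer was found once in the genome at 96 sites, or 38.6% (32.7% to 44.7%), compared with 70.7% of the other Setdb1 peaks and 57.0% of Kap1 peaks without Setdb1. At the sites of 200 bp the share was 50.6% (43.1% to 58.1%), and this interval contained the value of the Kap1 peaks. At the wider sites it was 13.6%. The Kap1 peaks were not matched for width, with a median of 150 bp and a highest value of 15870 bp. The site with the most copies, at a median of 11410, was 206 bp wide and lay between genes on chromosome 18. Only uniquely aligned reads were kept by the authors, and the part of this in these values was not tested. At the 37 sites with copies, 20 met young Kap1, 15 young H3K14ac and 10 each old H3K14ac and young Setdb1. Over all 249 sites, 40.2% met young Kap1 and 20.5% each old H3K14ac and young Setdb1. The share for young H3K14ac is given above.

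**Figure D5:**
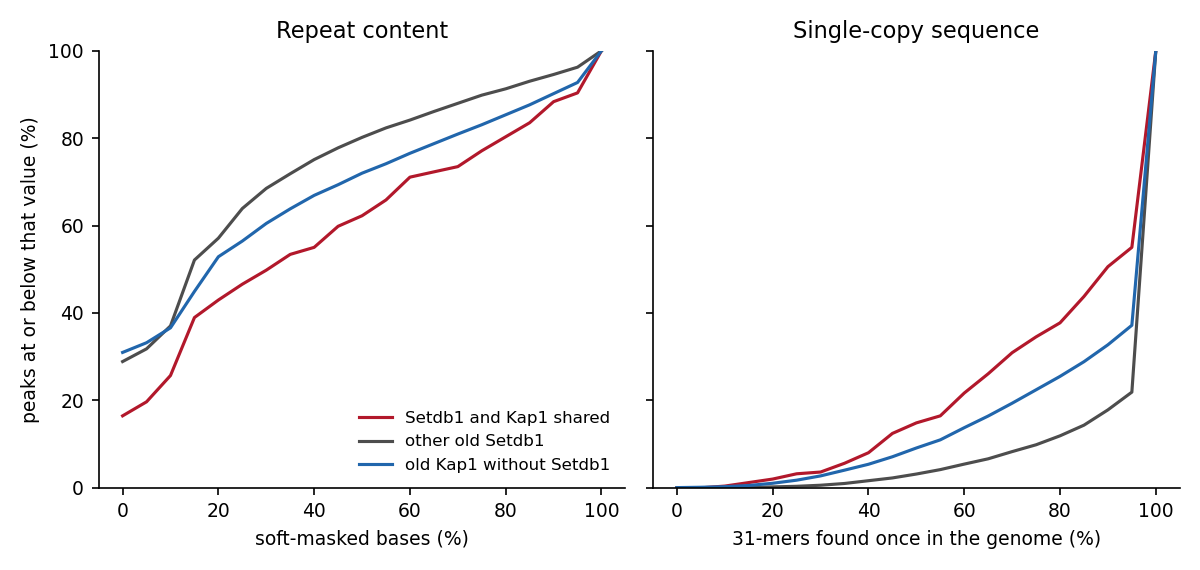
Cumulative percentage of peaks (vertical axis) at or below a given share of soft-masked bases (left) and of 31-mers found once in the genome (right), for the 249 shared sites (red), the other old Setdb1 peaks (grey) and the old Kap1 peaks without Setdb1 (blue). In that order, the lines stand at 62.2%, 80.2% and 72.0% for 50% soft-masked bases, and at 55.0%, 21.9% and 37.2% for 95% single-copy 31-mers.

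Few shared sites held sequence of another. Of all pairs of sites, 10 shared any 31-mer and 2 shared at least 20. The latter joined chr10:22142322-22143113, in an intron of E030030I06Rik, to chr13:3372953-3373672, with 130 shared 31-mers, and chr15:75085428-75087118 to chr18:3004649-3006062, with 182. Each of these 4 sites was in all 6 peak lists.

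The median GC content of the shared sites was 47% (quartiles 43% and 51.5%), compared with 44.5% in the other old Setdb1 peaks and 46.7% in Kap1 peaks without Setdb1. The observed over expected CpG ratio had a median of 0.125, compared with 0.130 and 0.128.

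For each motif searched and found in the shared sites, the share in the whole Setdb1 list lay within the interval of the sites. They were sought on both strands in the 200 bp around each midpoint, and a match is a run of letters, not a bound site. The Onecut letters ATCAAT were in 22 sites, or 8.84%, beside 9.19% of all old Setdb1 peaks and 8.76% of Kap1 peaks without Setdb1, and ATCGAT was in 1 site, beside 0.483% and 0.501%. The letters TGCCGC of Zfp57, a zinc finger protein that recruits Kap1 to imprinted regions, were in 5 sites, or 2.01%, beside 1.51% and 1.98%. They contain a CpG, which was in 174 sites, or 69.9%, beside 71.5% in each of the other lists. The palindrome bound by the glucocorticoid receptor was in 2 sites, or 0.803% (0.221% to 2.88%), beside 0.373% and 0.369%. The CArG box of serum response factor was in 3 sites, or 1.20%, beside 1.26% and 1.11%. A pair of telomere units (TTAGGG) was in 0 sites, and a stretch that translates into TGEKP, the linker between zinc fingers, was also in 0. The whole old Setdb1 list had 1 and 7 peaks with them, and the limits given above for a count of 0 sites apply here too.

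Compared with the 1027 places shared by Setdb1 and Kap1 in young liver, of which 41 met a shared site of old liver, the 249 sites lay in genes at a share whose interval overlapped. The midpoint lay in a gene at 41.2% of the young places (38.2% to 44.2%) and 44.2% of the old. A start site lay within 1 kb of 9.44% (7.80% to 11.4%) and 6.02%, with intervals that overlapped. The median 31-mer had 2 or more copies at 7.01% of the young places (5.60% to 8.74%) and 14.9% of the old, and an assembly gap lay within 100 kb of 8.18% (6.66% to 10.02%) and 13.7%, with intervals that overlapped for the gap and not for the copies. The share with copies was 9.86% (5.96% to 15.9%) where at least 50% of both old peaks had to be shared. It was 11.3% (7.36% to 17.0%) at the old sites of 200 bp, and both of these intervals overlapped that of the young places. Intervals also overlapped it with 50% of the Setdb1 peak shared and with gaps of up to 500 bp. The same held without old sites in windows of 3 or more or within 100 kb of unread bases. With all peaks set to 200 bp, or with all chromosomes, the intervals lay above it. The old sites wider than 200 bp had 22.2%. All these settings changed the old side only, so the overlaps cannot decide whether the ages differ in copies. Old H3K14ac was met by 12.8% of the young places (10.8% to 14.9%) and 20.5% of the old, and young H3K14ac by 14.7% (12.7% to 17.0%) and 24.5%, and neither pair of intervals overlapped. With all peaks set to 200 bp, 14.4% (10.5% to 19.5%) of the old sites met old H3K14ac. Gaps of up to 500 bp to Kap1 gave 14.1% (11.2% to 17.5%). Both intervals overlapped that of the young places. Without sites over 200 bp the share was 3.57% (1.65% to 7.57%), below the interval of the young places. Leaving out old sites in windows of 3 or more, within 100 kb of unread bases or with copies also gave intervals that overlapped it. With 50% of 1 or both peaks shared, or with all chromosomes, the intervals lay above it. Each of these settings changed the old sites only, while the young places kept the 1 bp rule and all widths. The ages were not compared under 1 changed rule. Under the main rule the Setdb1 peak was wider than 200 bp at 23.8% (21.3% to 26.5%) of the young places and 32.5% of the old sites. Width thus moved in the same direction as the shares with copies, assembly gaps and H3K14ac, and its part in them was not tested. A zinc finger gene lay in or within 1 kb of 1.66% (1.04% to 2.63%) of the young places and 3.61% of the old, with intervals that overlapped.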

How the data were processed

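Peak lists were those deposited, 1 per factor or mark and age. Per the study's methods, the authors mapped reads to mm10 (BWA), discarded duplicates and reads without a unique position, merged livers of an age, and ran PeakSeq with input as control. The deposited positions (start and end, in bp) are the only values, so shares, widths and distances were compared and depth is unknown. Old Setdb1 peaks on chromosomes 1 to 19 that share at least 1 bp with an old Kap1 peak were kept. Overlap code was checked against bedtools 2.31.1 (5 counts, 0 of which differed) and on simulated data, where 10 of 10 checks recovered the planted answer. Genes and start sites were GENCODE M21 basic, and sequence and soft-masking were RefSeq GRCm38. Copies of 31-mers were counted exactly. Sequential ChIP samples were not used here. Spaces after chromosome names X and Y were removed. Scripts ran on numpy 2.4.6 and numba 0.67.0 under Python 3.11.15, with intervals from scipy 1.17.1 and plots from matplotlib 3.10.9. The members, gene lists and motifs were chosen with earlier results of these data known. Genes named are those of sites within 1 kb of a start site, in all 6 lists, in 1 Mb windows of 3 or more sites, with the 10 longest or the shortest shared stretches, and of the gene lists, except some that are not reported here. Genes with a site in coding sequence and those of printed sequences are named too, some of them chosen after their values were seen. Alternatives were at least 50% of 1 or both peaks shared, gaps of up to 500 bp, all peaks at 200 bp, all chromosomes, sites over 200 bp left out, and distances of 5 and 10 kb.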

Additional observations from a re-analysis of the deposited data

How the results depend on the processing

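No paired analysis was possible because livers of an age were pooled into 1 list. Of 95 alternative values for 10 results, 77 stayed within the interval of the reported value (for the number of sites, within 1.5 times it) and 18 did not. The number of sites was 162 with at least 50% of the Setdb1 peak shared, 142 with at least 50% of both and 462 with gaps of up to 500 bp to Kap1. In the same order of settings, young Setdb1 was met by 29.0%, 26.1% and 14.3%. Old H3K14ac was met by 27.8% with 50% of the Setdb1 peak shared, 14.1% with gaps, 14.4% with all peaks set to 200 bp and 3.57% without sites over 200 bp. Young Setdb1 was met by 8.93% without sites over 200 bp. Young Kap1 was met by 27.7% with gaps, 29.7% with all peaks at 200 bp and 21.4% without wider sites. Start sites within 5 kb were found for 24.5%. The share with 2 or more copies was 9.86% with 50% of both peaks shared, 10.8% with gaps and 26.1% with 24-mers. Using all chromosomes moved 0 of 10 values outside these limits. Chosen after seeing the data, leaving out sites in windows of 3 or more, within 100 kb of unread bases or with 2 or more copies moved 0 of 10, 0 of 10 and 0 of 9 values outside them. Depth per peak is unknown, and the deposited threshold of each list sets its length.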

Other observations

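On chromosomes X and Y, which the rule left out, 4 of 199 old Setdb1 peaks met an old Kap1 peak. The 3 sites on X, in or near Mid1, near Cldn34d and between genes, shared 443 to 1568 bp with Kap1, had Setdb1 peaks of 485 to 1650 bp and each met all 4 other lists. Mid1 encodes a ubiquitin ligase and spans the boundary of the pseudoautosomal region in C57BL/6 mice. The site on Y was 200 bp wide, shared 100 bp and met none of the 4.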
